A study of Daphnia sinensis with 8 samples.

Results

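In *D. sinensis*, 168 of 11114 unigenes were high in both juvenile females (JF) and males (M) and low in both kinds of egg-carrying adult female, the parthenogenetic females (PF) and the sexual females (SF). They were selected on the measured values themselves, so their high level in JF and M is a description and not a result. The level was the CPM, the count of a unigene per 1000000 counts of its library. After the 4 stage means were put in order, the largest gap on the log2 scale had to part JF and M from PF and SF, and the JF and M means each had to reach 5 CPM. The lowest of the 4 JF and M libraries, divided by the highest of the 4 PF and SF libraries, had to be at least 2, and this quotient is called the ratio here. The pattern and the level alone were met by 590 unigenes, and 169 also met the ratio, so that an upper limit of 200 members was not reached. One of them, a trypsin-like gene named in the study's own list of candidates, was dropped, which left 168.

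The study compared whole animals of 4 life-history stages, with 2 libraries of poly-A RNA for each, made from pooled individuals. A JF library held about 500 females collected less than 12 h after birth, from mothers kept singly in a separate experiment. A PF library held about 50 females that carried eggs for the first time, an SF library about 50 females with resting eggs, and both were 2 to 3 weeks old by the labels and were picked from beakers that had become crowded. An M library held about 60 males, whose juveniles came from the same experiment with crowded beakers and were then reared apart for 2 weeks. For the males the labels give an age of 2 to 3 weeks, whereas the methods also describe them as within 12 h of birth. All animals came from 1 source lake and shared the same food, light and temperature, and no stage had a drug or genetic treatment. Stage, age and rearing differed together between the groups and cannot be told apart. In such bulk samples fewer cells of a type and less RNA per cell cannot be told apart either.

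*Daphnia* alternate between clonal and sexual reproduction. Parthenogenetic females release broods of daughters, and under crowding or food shortage some broods are male and some females make haploid eggs that, once fertilized, are shed as resting eggs in a hardened case. Newborn females carry no brood and have immature ovaries, and males make sperm in testes and carry no brood, so that only the PF and SF pools hold eggs and egg-forming adult ovaries. The reference gene table held 0 of the 168 IDs, and neither the files nor the paper annotate any of them, so no role is given to a member and each is called by its unigene ID. No sequence of a member was used here.

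The totals ran from 17172891 to 27160267 counts per library, and the 100 most abundant unigenes took 21.9% to 31.4% of them. The labels were checked with doublesex2 (Cluster-5789.12340), a gene of the doublesex family of transcription factors. The study had picked it as male-biased from these libraries and then found it higher in males by quantitative PCR. It had 220 and 214 CPM in M and 3.41 to 6.35 CPM in the 6 female libraries. Every listed unigene had a value above 0 in all 8 libraries, so a unigene without any reads in PF or SF could not become a member. The 2 M libraries were close to each other. Of 7341 unigenes with at least 5 CPM in both JF and M, 13.3% differed between the M libraries beyond the range that counting noise leaves to 5% of unigenes, whereas 72.3% did so between the SF libraries, 74% between the PF libraries and 56.1% between the JF libraries. The M libraries thus differed by more than sampling, but whether they came from separate cultures is not stated for any stage, and p-values measure only the spread between these libraries.

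Together the 168 unigenes held 33566 and 30263 CPM in the JF libraries and 26098 and 26273 CPM in the M libraries. In the PF libraries they held 5961 and 5890 CPM, and in the SF libraries 6937 and 7786 CPM. Their share of all counts was therefore 3.36% and 3.03% in JF, 2.61% and 2.63% in M, 0.596% and 0.589% in PF, and 0.694% and 0.779% in SF. The 5 most abundant members made 28.0% to 35.7% of this sum in a library, so that no handful of unigenes carried it alone.

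**Figure D1:**
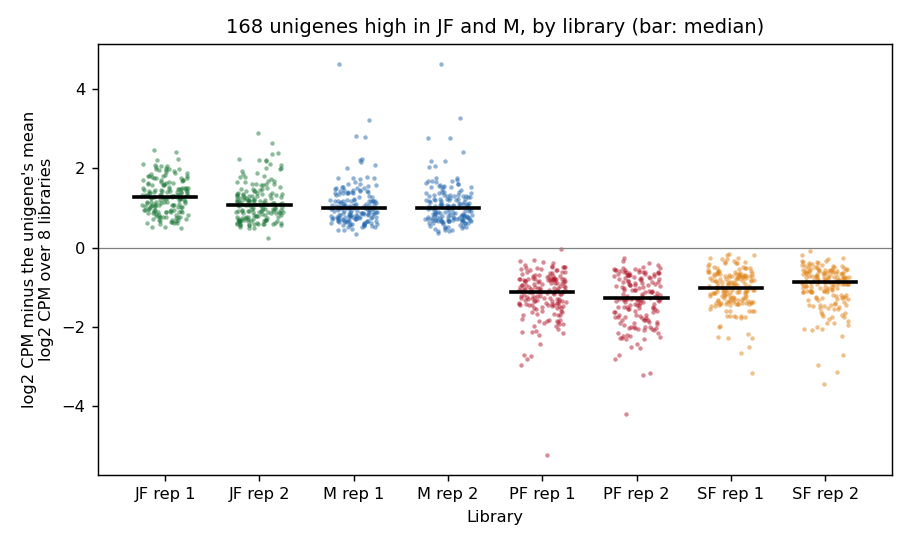
Level of each of the 168 unigenes in each library (x axis), as log2 CPM minus that unigene's mean log2 CPM over the 8 libraries (y axis); each point is a unigene and the bar is the median. The separation of JF and M from PF and SF follows from how the unigenes were chosen; the spread within a library does not.

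Most members were moderately expressed. The mean over the JF and M libraries ran from 5.47 to 2315 CPM with a median of 39.0 CPM, and the mean over PF and SF had a median of 7.99 CPM. A mean of at least 500 CPM in JF and M was reached by 17 members (10.1%), compared with 4.56% of the 7341 unigenes above the same level requirement. A mean of at least 20 CPM, in contrast, was reached by 65.5% of the members and 79.7% of those unigenes, so the share of members was larger at both ends of this range. The ratio had a median of 2.52, and 39 members reached 3, 14 reached 4 and 7 reached 5. The mean in JF and M divided by the mean in PF and SF had a median of 4.38, and in Cluster-5789.12248 it was 70.0.

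The 5 most abundant members had means of 1493 to 2315 CPM over the JF and M libraries. Cluster-5789.6279 had 3583 and 3435 CPM in JF, 1132 and 1111 CPM in M, 154 and 168 CPM in PF, and 335 and 316 CPM in SF. Its 4 stages did not overlap, and all neighbours in the order JF, M, SF and PF were far apart compared with their replicates. Cluster-5789.6298 had 2577 and 1689 CPM in JF, 2004 and 2042 CPM in M, 640 and 657 CPM in PF, and 381 and 782 CPM in SF. Here the M libraries lay between the JF libraries and the PF libraries lay between the SF libraries, so that only the high and the low pair of stages were distinct. Cluster-5789.5859 behaved the same way, with 2018 and 1338 CPM in JF, 1433 and 1406 CPM in M, 485 and 486 CPM in PF, and 316 and 571 CPM in SF. Cluster-5789.5336 had 1542 and 1666 CPM in JF, 1402 and 1430 CPM in M, 524 and 312 CPM in PF, and 595 and 545 CPM in SF. Cluster-5789.5820 had 1481 and 1771 CPM in JF, 1342 and 1376 CPM in M, 328 and 358 CPM in PF, and 466 and 427 CPM in SF. In these 2 unigenes JF lay above M and SF above PF without overlap, but neither comparison passed the test described below.

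The 12 members with the highest ratio had means of 7.33 to 585 CPM over JF and M, and none of the 8 members with the highest means was among them. Cluster-5789.767 had the highest ratio, 7.15, with 16.7 and 15.5 CPM in JF, 30.8 and 30.5 CPM in M, 2.16 and 0.641 CPM in PF, and 0.710 and 0.693 CPM in SF. Cluster-5789.6991 followed with 6.59, and had 180 and 163 CPM in JF, 178 and 188 CPM in M, 21.0 and 22.4 CPM in PF, and 23.5 and 24.7 CPM in SF. Its JF and M libraries overlapped and all 4 low libraries lay within a narrow band, which made it the plainest case of the pattern. Cluster-5789.1306 and Cluster-5789.1362 showed the same picture at lower levels. Cluster-5789.1306 had 8.35 and 7.14 CPM in JF, 7.27 and 6.55 CPM in M, 1.28 and 0.757 CPM in PF, and 0.888 and 1.09 CPM in SF. Cluster-5789.1362 had 52.2 and 45.8 CPM in JF, 50.1 and 54.2 CPM in M, 9.05 and 6.93 CPM in PF, and 7.28 and 7.42 CPM in SF. In both of them JF overlapped M, and PF overlapped SF.

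In other members of this group the JF and M libraries did not overlap. Cluster-5789.12248 had 30.6 and 34.0 CPM in JF but 186 and 186 CPM in M, with 0.200 and 0.408 CPM in PF and 4.93 and 0.693 CPM in SF. Its low values rest on few reads, the lowest on 5 counts. Cluster-5789.3441 had 8.56 and 5.82 CPM in JF, 29.2 and 30.4 CPM in M, 0.841 and 0.932 CPM in PF, and 0.355 and 0.792 CPM in SF. Cluster-5789.4706 had 32.5 and 26.2 CPM in JF, 96.3 and 93.8 CPM in M, 6.21 and 3.73 CPM in PF, and 4.08 and 1.78 CPM in SF. In all 3 the M libraries lay well above the JF libraries. Cluster-5789.7475 was the opposite case, with 761 and 825 CPM in JF, 378 and 378 CPM in M, 40.3 and 52.5 CPM in PF, and 82.6 and 65.2 CPM in SF. Cluster-5789.6658 had 233 and 192 CPM in JF, 299 and 298 CPM in M, 16.6 and 30.8 CPM in PF, and 42.1 and 45.0 CPM in SF. Its M libraries lay above JF and its SF libraries above PF, in each case without overlap.

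In 2 of the remaining 3 of the 12, single libraries stood apart. Cluster-5789.4891 had 52.9 and 107 CPM in JF, a difference larger than that between JF and M, which had 50.3 and 54.3 CPM. Its PF libraries had 4.01 and 3.20 CPM and its SF libraries 7.95 and 4.8 CPM. Cluster-5789.2043 had 20.6 and 12.4 CPM in JF, 13.5 and 15.0 CPM in M, 1.52 and 0.873 CPM in PF, and 2.58 and 2.08 CPM in SF. Its JF libraries stood on either side of M. Cluster-5789.4073 had 15.2 and 18.9 CPM in JF, 19.9 and 20.9 CPM in M, 3.12 and 2.97 CPM in PF, and 2.97 and 1.68 CPM in SF. In it M lay above JF, and PF and SF met at the same value.

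**Figure D2:**
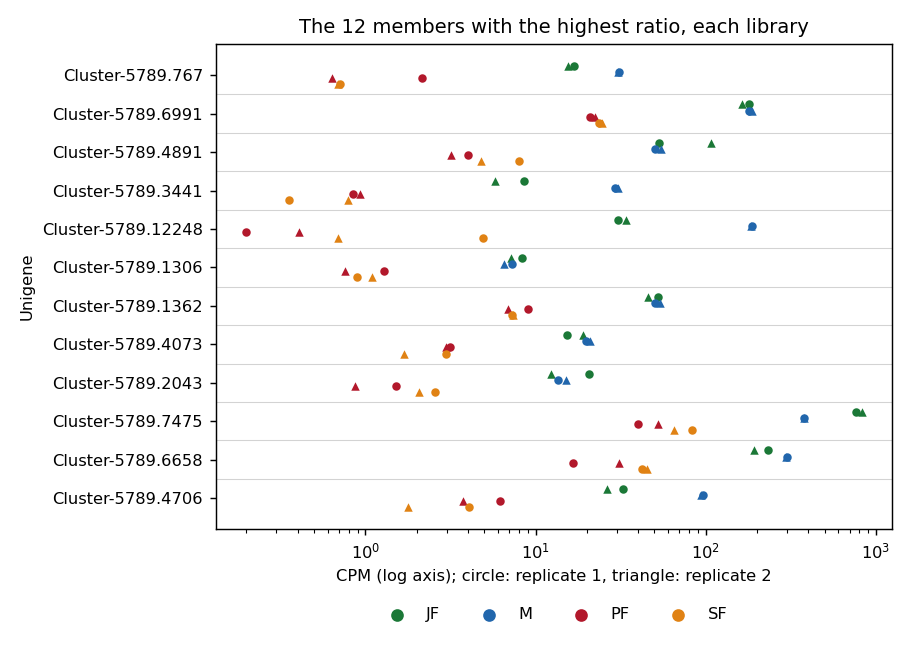
CPM (x axis, log scale) of the 12 unigenes with the highest ratio (y axis, highest at the top) in every library, with circles for replicate 1 and triangles for replicate 2 and the stage by colour. All JF and M points lie to the right of all PF and SF points because the unigenes were chosen for it; the distance between JF and M points differs between unigenes, from overlap in Cluster-5789.6991 to a wide gap in Cluster-5789.12248.

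The rule left the order of M and JF free, so M vs JF was tested. It did limit the size of their difference, which had to be smaller on the log2 scale than the gap to PF and SF. Smaller differences and fewer calls than among all unigenes therefore follow in part from the selection and are given as a description. edgeR's quasi-likelihood test was fitted over 10822 unigenes of all 8 libraries, and a unigene was called if it changed by more than 1 on the log2 scale and its p, adjusted by Benjamini-Hochberg, was under 0.05. All 168 members passed the filter on low counts. In M, 7 members (4.17%) were up-regulated and 10 (5.95%) down-regulated, against 13.6% and 15.6% of all unigenes tested. Both M libraries lay above both JF libraries in 47 members (28%, against 34.2% of all tested), and both JF libraries above both M libraries in 75 members (44.6%, against 49%). The median log2 fold change of M over JF was -0.16 in the members and -0.14 in all tested unigenes. That common shift depended on the scaling, being -0.04 on DESeq2 size factors and -0.20 on the library total alone, and the share of all called unigenes that were higher in M was 46.5%, 53.8% and 43% under TMM, DESeq2 size factors and library size. The members' own median relative to it stayed near 0 under all 3. The 95% interval of the log2 fold change lay within -1 and 1 in 75 members (44.6%), compared with 35.6% of all tested unigenes, and in the others it reached past a 2-fold difference between M and JF.

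The 7 members that rose in M were mostly of low to moderate abundance. Cluster-5789.12248 had a log2 fold change of 2.58 ± 0.73 (SE, n = 2 against 2; edgeR adjusted p = 0.0293), with both M libraries above both JF libraries, but the call was lost without any single JF or M library (adjusted p 0.102 to 0.126). Cluster-5789.3441 rose by 2.11 ± 0.27 on the log2 scale (edgeR adjusted p = 0.0012), and its call held without any single library. Cluster-5789.4706 rose by 1.75 ± 0.43 (edgeR adjusted p = 0.0161), a call lost without JF replicate 1, JF replicate 2, M replicate 1 or M replicate 2 (adjusted p 0.0632 to 0.0939). Cluster-5789.11466 had 8.83 and 5.93 CPM in JF and 18.2 and 20.6 CPM in M, a log2 fold change of 1.46 ± 0.26, with 1.20 and 0.815 CPM in PF and 1.47 and 1.93 CPM in SF. Cluster-5789.328 had 11.8 and 9.94 CPM in JF and 28.3 and 26.5 CPM in M, a log2 fold change of 1.40 ± 0.17, with 3.65 and 4.31 CPM in PF and 4.44 and 3.81 CPM in SF. Both of these calls held without any single library. With the 2-fold threshold inside the test the call of Cluster-5789.11466 was lost (adjusted p = 0.106). So were those of Cluster-5789.12248 and Cluster-5789.4706 (adjusted p 0.132 and 0.137). The count of 7 fell when any single JF or M library was left out, as did the share of all tested unigenes. Such a fit leaves 1 library in a stage.

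The 10 members that fell in M included the most abundant one. Cluster-5789.6279 fell by 1.59 ± 0.11 on the log2 scale (edgeR adjusted p = 0.0002), and this call held without any single library. Cluster-5789.2780 had 18.8 and 22.2 CPM in JF and 8.73 and 6.45 CPM in M, with 1.32 and 1.92 CPM in PF and 2.94 and 1.44 CPM in SF. It fell by 1.38 ± 0.36 (edgeR adjusted p = 0.0183), a call lost without JF replicate 2, M replicate 1 or M replicate 2 (adjusted p 0.0581 to 0.118). Cluster-5789.11138 had 32.5 and 34.9 CPM in JF and 12.7 and 14.2 CPM in M, with 3.45 and 1.98 CPM in PF and 3.24 and 4.16 CPM in SF. It fell by 1.27 ± 0.27 (edgeR adjusted p = 0.0089), a call lost without either M library (adjusted p 0.0514 and 0.0696). The calls of Cluster-5789.2780 and Cluster-5789.11138 were also lost with the 2-fold threshold inside the test (adjusted p 0.277 and 0.283). The other 7 had log2 fold changes of -1.09 to -1.01, close to the limit of -1. With DESeq2 size factors 3 members in place of 10 were called down-regulated in M, against 13.1% of all tested unigenes, and all 3 were among the 10. The count of 10 rose without JF replicate 1, stayed without PF replicate 2 and fell without each of the other libraries. Such fits leave 1 library in a stage.

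At the other end were members with nearly equal means in the 2 high stages. Cluster-5789.8206 had 477 and 303 CPM in JF and 372 and 377 CPM in M, with 69.3 and 83.6 CPM in PF and 72.1 and 149 CPM in SF. Cluster-5789.7946 had 378 and 302 CPM in JF and 324 and 328 CPM in M, with 31.9 and 22.7 CPM in PF and 76.2 and 36.5 CPM in SF. Cluster-5789.8905 had 44.1 and 46.9 CPM in JF and 44.7 and 42.5 CPM in M, with 21.1 and 19.2 CPM in PF and 18.3 and 18.9 CPM in SF. M lay inside the JF range in the first 2 and overlapped it in the third, and their log2 fold changes lay between -0.01 and 0.00 with standard errors of 0.33, 0.39 and 0.13. The lowest log2 fold change of any member, -1.65 ± 0.71 in Cluster-5789.13035 (singled out after its values were seen), did not pass the test (edgeR adjusted p = 0.101), although its JF libraries had 26.4 and 35.6 CPM and its M libraries 9.19 and 9.82 CPM.

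**Figure D3:**
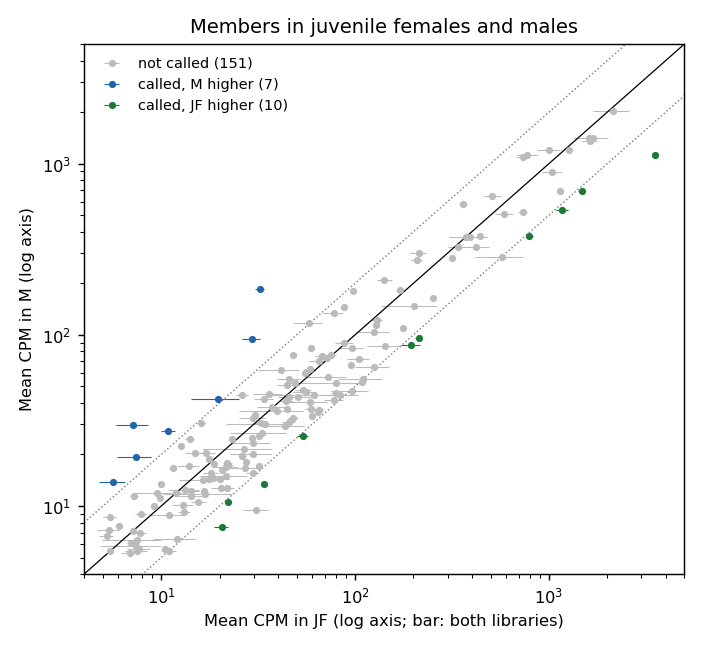
Mean CPM in JF (x axis) and in M (y axis) of the 168 unigenes, both on log scales; the horizontal bar joins the 2 JF libraries, the solid line marks equality and the dotted lines a 2-fold difference. The 7 unigenes called higher in M lie at the upper left, mostly at low levels, and the 10 called lower in M lie along the lower dotted line, with Cluster-5789.6279 at the far right.

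The rule also left the order of SF and PF free, and SF vs PF was tested in the same fit. The size of this difference was limited by the rule in the same way. In SF, 14 members (8.33%) were up-regulated and 2 (1.19%) down-regulated, against 9.98% and 4.84% of all tested unigenes. Both SF libraries lay above both PF libraries in 61 members (36.3%, against 28.5% of all tested), and both PF libraries above both SF libraries in 26 members (15.5%, against 32%). The median log2 fold change of SF over PF was 0.22 in the members and 0.02 in all tested unigenes. The SF mean exceeded the PF mean in 112 of 168 members, a share that was not counted over all unigenes. The members were chosen with a limit on their highest PF or SF library, and no test was made of whether they lean towards SF as a list. Both counts, 14 and 2, changed when single PF or SF libraries were left out. Such a fit leaves 1 library in a stage, and neither count is firm.

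Among the members that rose in SF, Cluster-5789.6958 was the clearest. It had 35.5 and 38.1 CPM in PF and 83 and 117 CPM in SF, with 318 and 316 CPM in JF and 276 and 287 CPM in M, and its log2 fold change of 1.48 ± 0.14 (n = 2 against 2; edgeR adjusted p = 0.0014) held without any single library. Cluster-5789.7068 had 1.44 and 1.22 CPM in PF and 3.02 and 4.40 CPM in SF, against 18.1 and 22.5 CPM in JF and 12.2 and 13.2 CPM in M. Its log2 fold change of 1.49 ± 0.25 (edgeR adjusted p = 0.0078) also held without any single library, but was lost with edgeR on the 4 libraries compared (adjusted p = 0.0583) and with the 2-fold threshold inside the test (adjusted p = 0.16). The next 3 had larger log2 fold changes on fewer counts or on more variable libraries. Cluster-4223.0 had 0.321 and 0.466 CPM in PF and 1.82 and 0.990 CPM in SF, with 7.60 and 6.19 CPM in JF and 5.72 and 4.91 CPM in M. It rose by 1.92 ± 0.42 (edgeR adjusted p = 0.0195), a call lost without either PF library (adjusted p 0.0558 and 0.0741). Cluster-5789.9875 had 0.401 and 0.699 CPM in PF and 1.24 and 2.23 CPM in SF, with 10.2 and 10.8 CPM in JF and 5.14 and 6.09 CPM in M. Its log2 fold change of 1.72 ± 0.36 (edgeR adjusted p = 0.016) lost the call without PF replicate 1 (adjusted p = 0.0694). Cluster-5789.12455 had 2.20 and 3.44 CPM in PF and 5.82 and 10.8 CPM in SF, with 51.4 and 31.6 CPM in JF and 60.8 and 63.8 CPM in M. Its log2 fold change of 1.61 ± 0.35 (edgeR adjusted p = 0.0198) lost the call without PF replicate 1 or SF replicate 2 (log2 fold change 1.43 and 1.18). All 3 calls were also lost with edgeR on the 4 libraries compared (adjusted p 0.0898, 0.0849 and 0.0768). With the 2-fold threshold inside the test they were lost too (adjusted p 0.162, 0.17 and 0.234).

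Cluster-5789.12248 had the highest log2 fold change of any member in SF vs PF, 3.34 ± 1.04, but was not called (edgeR adjusted p = 0.0624), and only SF replicate 1 was far above the PF libraries. The 2 members that fell in SF did so without overlap. Cluster-6867.0 had 2.36 and 1.92 CPM in PF and 0.622 and 0.792 CPM in SF, with 7.44 and 6.89 CPM in JF and 7.73 and 6.50 CPM in M, and it fell by 1.57 ± 0.25 on the log2 scale (edgeR adjusted p = 0.0067). Cluster-5789.9219 had 35.5 and 39.8 CPM in PF and 17.1 and 13.8 CPM in SF, with 97.1 and 99.0 CPM in JF and 179 and 183 CPM in M, and it fell by 1.23 ± 0.15 (edgeR adjusted p = 0.0027). Both calls held without any single library, but were lost with edgeR on the 4 libraries compared (adjusted p 0.0583 and 0.051) and with the 2-fold threshold inside the test (adjusted p 0.114 and 0.256).

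In both comparisons 3 members were called, and all 3 fell in M and rose in SF, so that the order of their means was JF, M, SF and PF. The rule limits both differences, and the share of all tested unigenes called in both was not counted. Nothing is read from this number or its direction. The comparisons share no library, but share the spread estimated in the fit. Cluster-5789.6279 rose in SF by 1.06 ± 0.11 (edgeR adjusted p = 0.0018). Cluster-5789.6820 had 203 and 222 CPM in JF, 96.1 and 96.5 CPM in M, 43.6 and 26.7 CPM in SF, and 15.6 and 14.0 CPM in PF. It fell by 1.09 ± 0.26 in M and rose by 1.31 ± 0.27 in SF, and the call in M was lost without JF replicate 2, PF replicate 1, SF replicate 1, SF replicate 2, M replicate 1 or M replicate 2, and that in SF without PF replicate 2 or SF replicate 1. Cluster-5789.9092 had 216 and 172 CPM in JF, 89.8 and 85.6 CPM in M, 35.3 and 37.3 CPM in SF, and 17.2 and 13.5 CPM in PF. It fell by 1.09 ± 0.18 in M and rose by 1.28 ± 0.18 in SF, and the call in M was lost without JF replicate 1, PF replicate 1, SF replicate 1 or SF replicate 2, where the log2 fold change lay between -0.97 and -0.94. With edgeR on the 4 libraries compared, the calls of Cluster-5789.6820 and Cluster-5789.9092 were lost in both comparisons (in SF with adjusted p 0.0879 and 0.051), and with the 2-fold threshold inside the test only the fall of Cluster-5789.6279 in M was left of the calls of these 3. A further 7 members were called only higher in M, 7 only lower in M, 11 only higher in SF and 2 only lower in SF, and 138 were called in neither comparison.

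**Figure D4:**
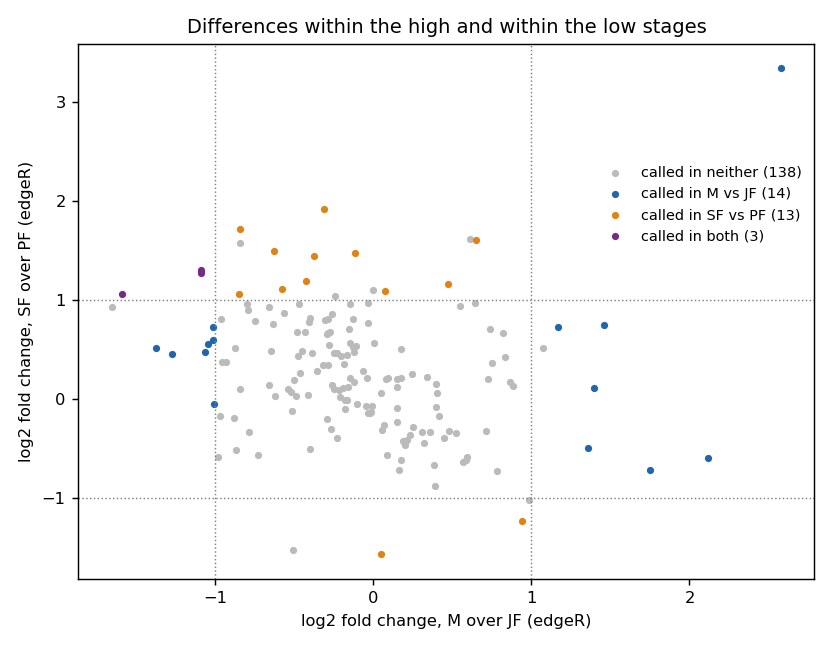
Log2 fold change of M over JF (x axis) and of SF over PF (y axis) for the 168 unigenes, with the comparison in which each was called by colour and dotted lines at -1 and 1. The 138 unigenes called in neither comparison fill the centre, and the 3 called in both lie at the upper left.

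The comparisons across the selection are given as a description only. All 168 members were called higher in M than in PF (18.1% of all tested) and all 168 higher in JF than in PF (21.6% of all tested). In M vs SF 164 members were called (10.2% of all tested), and in JF vs SF 167 (18.6% of all tested). The median log2 fold changes of the members were 2.23 in M vs PF, 1.94 in M vs SF, 2.39 in JF vs PF and 2.15 in JF vs SF. The 4 members without a call in M vs SF, named after their values were seen, were Cluster-5789.8157, Cluster-7684.0, Cluster-5789.13035 and Cluster-5789.6262, and Cluster-7684.0 was also the only member without a call in JF vs SF. In Cluster-7684.0 the PF libraries had 4.77 and 0.932 CPM and the SF libraries 7.24 and 4.6 CPM, against 20.7 and 23.2 CPM in JF and 18.8 and 16.9 CPM in M.

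Replicates of the members agreed closely in M and less in the female stages. The median absolute log2 ratio between the M replicates was 0.05, and in JF, PF and SF it was 0.25, 0.36 and 0.34. The 7341 unigenes at the same level in JF and M had medians of 0.05 in M and 0.14, 0.27 and 0.25 in the same order of female stages. A difference over 2-fold between replicates occurred in 23 members for SF, 16 for PF, 8 for JF and 0 for M. In JF and SF the replicate differences of many members ran in opposite directions, a pattern noticed after the values were seen. In 25 members (14.9%) JF replicate 1 was more than 1.25-fold above JF replicate 2 and SF replicate 2 more than 1.25-fold above SF replicate 1, compared with 4.09% of the 7341 unigenes. The other 3 combinations of these directions held 5, 6 and 3 members (2.98%, 3.57% and 1.79%), compared with 4.5%, 2.08% and 3.2%. Across the 168 members Pearson's r between the 2 replicate log2 ratios was -0.30, and across the 7341 unigenes it was 0.19; these points share the same 4 libraries, and unigenes are not independent replicates. The 25 included 5 of the 17 members with at least 500 CPM, among them Cluster-5789.6298 and Cluster-5789.5859, whose values in every library are given above. Of the 25, 2 were called in M vs JF and 1 in SF vs PF. What set these libraries apart was not tested.

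**Figure D5:**
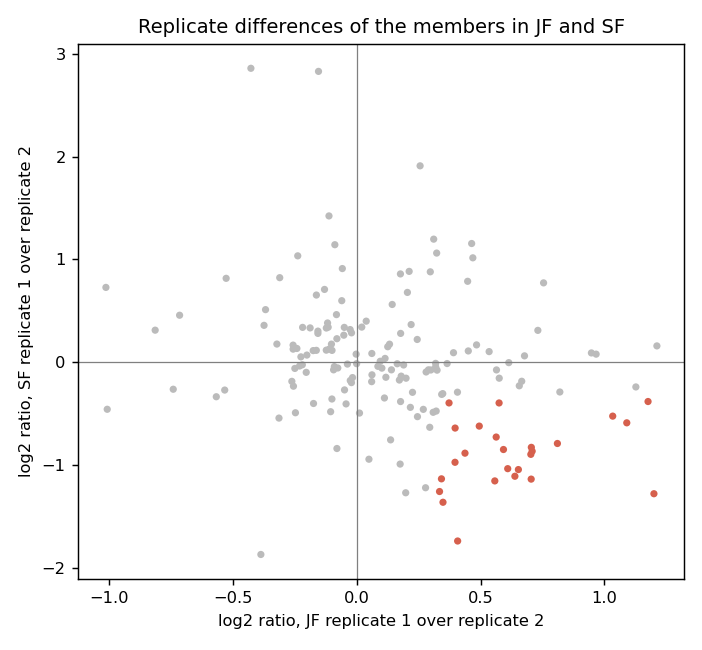
Log2 ratio of replicate 1 to replicate 2 in JF (x axis) and in SF (y axis) for the 168 unigenes. The 25 coloured points, at the lower right, are those with JF replicate 1 and SF replicate 2 higher by more than 1.25-fold each.

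The IDs of the assembly carry a cluster number and a unigene number, and both were compared with the rest. Outside the main cluster lay 13 members (7.74%), compared with 5.88% of all listed unigenes and 2.36% of the 7341 unigenes with at least 5 CPM in JF and M. All 13 had a mean under 20 CPM in JF and M, a range that held a larger share of the members than of the 7341. The 5 most abundant of them were Cluster-7684.0, given above, Cluster-8353.0, Cluster-2484.0, Cluster-4429.0 and Cluster-7226.0. Cluster-8353.0 had 20.0 and 21.1 CPM in JF, 15.7 and 16.5 CPM in M, 6.45 and 5.24 CPM in PF, and 5.73 and 4.16 CPM in SF. Cluster-2484.0 had 17.1 and 20.0 CPM in JF, 14.0 and 15.0 CPM in M, 4.61 and 3.44 CPM in PF, and 6.97 and 6.73 CPM in SF. Both had JF above M without overlap and neither was called in M vs JF. Cluster-4429.0 had 15.6 and 12.7 CPM in JF, 11.5 and 13 CPM in M, 1.44 and 2.62 CPM in PF, and 2.49 and 3.86 CPM in SF. Cluster-7226.0 had 14.6 and 11.3 CPM in JF, 9.86 and 10.5 CPM in M, 3.41 and 1.82 CPM in PF, and 3.77 and 3.81 CPM in SF. Cluster-4429.0 overlapped between JF and M, whereas Cluster-7226.0 did not.

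An estimated count can be fractional where a program divides reads among similar unigenes, although the program is not stated. Of the members' values 69.4% were whole numbers, compared with 53.5% over the 7341 unigenes, and 54 members (32.1%, compared with 15.3%) were whole in all 8 libraries. The remaining members had at least 1 fractional value, and their levels are uncertain to the extent that reads were divided with a similar unigene. Among them, the abundant Cluster-5789.6279, Cluster-5789.5859 and Cluster-5789.5336 had 0 whole values. A mean under 20 CPM in JF and M was more frequent in the members than in the 7341. Whether the level accounts for the different shares of whole numbers was not tested.

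Consecutive unigene numbers among the members were about as frequent as their share of the main cluster gives. Of 225 listed unigenes with the number next to that of a member, 4 (1.78%) were members too, compared with 1.48% of all unigenes in the main cluster. They formed 2 pairs. Cluster-5789.3440 and Cluster-5789.3441 were both called higher in M than in JF. Cluster-5789.3440 had 25.1 and 14.2 CPM in JF, 41.7 and 42.7 CPM in M, 2.88 and 2.04 CPM in PF, and 3.64 and 4.45 CPM in SF. Its log2 fold change of 1.17 ± 0.29 (edgeR adjusted p = 0.0161) lost the call without JF replicate 2, M replicate 1 or M replicate 2. The call was also lost with the 2-fold threshold inside the test (adjusted p = 0.468). In the other pair, Cluster-5789.7738 had 110 and 81.5 CPM in JF, 84.1 and 84.2 CPM in M, 15.3 and 13.7 CPM in PF, and 14.4 and 26.7 CPM in SF. Its neighbour Cluster-5789.7739 had 62.6 and 55.3 CPM in JF, 36.1 and 37.5 CPM in M, 14.6 and 10.6 CPM in PF, and 11 and 14.3 CPM in SF. JF and M overlapped in the first of this pair and not in the second, and neither was called in M vs JF.

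Members just inside and just outside the limit differed little. Cluster-5789.12673 and Cluster-5789.9694 had a ratio of 2.00. Cluster-5789.12673 had 57.8 and 62.1 CPM in JF, 34.2 and 32.7 CPM in M, 16.3 and 15.9 CPM in PF, and 13.2 and 11.7 CPM in SF. Cluster-5789.9694 had 62.0 and 73.6 CPM in JF, 74.4 and 76.0 CPM in M, 17.5 and 31.0 CPM in PF, and 14.0 and 19.7 CPM in SF. Just outside were Cluster-5789.10915 and Cluster-5789.4816, with ratios of 1.999 and 1.988. Cluster-5789.10915 had 81.8 and 63.6 CPM in JF, 67.3 and 70.1 CPM in M, 13.6 and 10.7 CPM in PF, and 31.8 and 16.4 CPM in SF. Its ratio was set by JF replicate 2 and SF replicate 1. Cluster-5789.4816 had 17.4 and 18.1 CPM in JF, 21.7 and 21.3 CPM in M, 8.77 and 7.40 CPM in PF, and 8.44 and 5.59 CPM in SF.

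The rule was also applied to the replicate 1 libraries alone and read in the replicate 2 libraries, which it had not used. Separate cultures are not stated for any stage and the M libraries were close to each other. The other libraries are therefore not known to be an independent repeat, and the shares are a description. Of 323 unigenes so chosen, 176 (54.5%) had a ratio of at least 2 in the other 4 libraries, a ratio that 3.69% of all listed unigenes had there, whatever their level and pattern. Their median ratio was 2.79 in the libraries that chose them and 2.12 in the others. In the reverse direction 249 unigenes were chosen, of which 175 (70.3%) had a ratio of at least 2, compared with 4.27% of all listed unigenes, with medians of 2.72 and 2.49. With the same rule and no upper limit, 231 unigenes were high in PF and SF and 242 in SF and M, but 33 in JF and PF, 10 in JF and SF and 7 in PF and M.

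The study took candidates for male-biased expression from these same libraries. It kept those that its quantitative PCR found higher in M than in JF, PF and SF. Because these libraries made the first choice, their values are no independent evidence for the list. Of 11 unigenes with a known gene name, 1 met the rule before named genes were dropped, as did 1.52% of all listed unigenes, and nothing is read from so small a count. It is Cluster-5789.7668, a trypsin-like gene, trypsin being a secreted protease that cuts dietary protein in the gut, and it had 79.5 and 64.8 CPM in JF, 196 and 186 CPM in M, 23.8 and 11.8 CPM in PF, and 15.9 and 14.2 CPM in SF. It was up-regulated in M vs JF with a log2 fold change of 1.47 ± 0.35 (edgeR adjusted p = 0.0146). All 11 were up-regulated in M vs JF, and in SF vs PF 5 were up-regulated and 0 down-regulated. Of 25 uncharacterized candidates 17 were listed and 0 met the rule. Of the 17, M vs JF had 16 up-regulated and 0 down-regulated unigenes, whereas SF vs PF had 10 and 2.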

How the data were processed

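RNA of 8 libraries, 2 for each of 4 stages, was analysed. The authors sequenced poly-A libraries as paired ends, discarded low-quality reads and those holding adapters or unknown bases, assembled all reads with Trinity into unigenes, and deposited an estimated count per unigene and library, without scaling. Not given in the sources used here are the aligner, the counter and how the list was reduced.

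The members and the lists were chosen with earlier results of these data known. CPM was the count divided by the total of its library, times 1000000. For tests the counts were rounded to whole numbers, and edgeR 4.0.16 (limma 3.58.1, R 4.3.3) was fitted to the 8 libraries by stage, with TMM scaling, robust quasi-likelihood and edgeR's filter on low counts, which removed 292 unigenes and left 4 residual degrees of freedom. The standard error is the size of the log2 fold change divided by the square root of F. The fit was tested on simulated data. A library held 17172891 to 27160267 counts. The lowest count of a member over the 8 libraries was 5 at the least and had a median of 105.5, so counting error matters for the rarer members. Between the M libraries, most unigenes with at least 5 CPM in JF and M did not differ beyond counting noise. A value was called whole to within 1e-06.

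The members named were the 12 with the highest ratio, the 5 most abundant, at most 5 called in each direction of M vs JF and of SF vs PF, the 3 with the smallest log2 fold change in M vs JF, those 2 inside and 2 outside the limit, at most 5 outside the main cluster, neighbours in number, and candidates of the study that met the rule. Alternatives covered scaling, filters, DESeq2 1.42.0, the libraries fitted, thresholds, the replicate block and each library left out.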

Additional observations from a re-analysis of the deposited data

How the results depend on the processing

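The number of members, 168, was 39 with a ratio of at least 3 and 101 with JF and M means of at least 20 CPM. Without the limit of 200 it was 177 on TMM-scaled CPM (161 shared with the 168), 206 on DESeq2 size factors (163 shared) and 329 with a ratio of at least 1.5. For M vs JF, 7 members were higher in M, against 13.6% of all tested unigenes. With the fold threshold inside the test (glmTreat) there were 2, against 7.53%. On the 4 libraries compared edgeR gave 12, against 17.3%, and the adjusted p alone 18, against 21.6%. The count also changed when single libraries were left out. The 10 lower in M were 3 with DESeq2 size factors, 3 with DESeq2 on all 8 libraries, 1 with the fold threshold inside the test, 4 on the 4 libraries compared, 28 with the adjusted p alone, and 3 to 15 without a single library. For SF vs PF, the 14 higher in SF were 1 with the fold threshold inside the test, 3 on the 4 libraries compared, 24 with the adjusted p alone, and 9 to 27 without a single library. The 2 lower in SF (4.84% of all tested unigenes were) became 0 with the fold threshold inside the test (1.16%) and 0 on the 4 libraries compared (1.84%). With the adjusted p alone they were 6 (13.4%), and the count rose without PF replicate 2 or SF replicate 2. The adjusted p alone is a wider rule and the fold threshold inside the test a narrower one by construction; the cause of the other changes was not tested.

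With the replicate block, the 4 counts were 8 and 10 in M vs JF and 14 and 2 in SF vs PF. The shares of all tested unigenes were 13.4% and 15.2%, and 9.35% and 4.61%. Whether equal replicate numbers pair the samples is not stated. Over 6084 unigenes the correlation of replicate differences between stages was -0.07 to 0.16, which cannot settle it. Of 44 named log2 fold changes 22 were called, and 18 of these lost the call in at least 1 alternative, while 0 changed sign with a call. The alternative with at least 10 counts in every library tested 165 of the 168 members. With 2 libraries a stage, the fit assumes that M varies like the female stages, which the M libraries did less.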
